A study of Mus musculus with 16 samples.

Results

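A set of 9 genes of myelin and of the oligodendrocyte were followed in RNA from the mouse somatosensory cortex. They were Mbp, Mobp, Mog, Mag, Cnp, Cldn11, Ermn, Mal and Opalin. The rows were taken by exact symbol, and all 9 were present in each of the 16 libraries, out of 24060 genes listed per library. All mice were C57BL/6J, carried both Aldh1l1CreERT2 and RiboTag, were 3 months old and had received tamoxifen at 2 months. After tamoxifen the Cre driven by Aldh1l1, a gene of astrocytes, puts an HA tag on the ribosomal protein Rpl22, and an antibody against HA then isolates the ribosomes of these cells together with their mRNA. RNA was sequenced from this immunoprecipitate (IP) and from the lysate it was drawn from (INPUT, which holds every cell type), in 4 libraries per fraction from naïve and 4 per fraction from stressed mice. Stressed mice swam for 20 min and then rested for 90 min, whereas naïve mice, called control in the labels, stayed in the home cage. Which IP and INPUT libraries came from the same mouse, and the sex of each mouse, were not in the labels. The methods give 4 males and 4 females, so whether sex was balanced between naïve and stressed mice cannot be told. The labels place the swim 1 month after tamoxifen and the methods 2 weeks after its last dose.

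Myelin is the membrane that oligodendrocytes wrap around axons, and the 9 genes divide by where their proteins sit in it. Mbp, Mobp, Mal and Cldn11 belong to the compact sheath and its seams, Cnp to its cytoplasmic channels, Mag and Mog to its inner and outer surface, and Ermn and Opalin to the mature oligodendrocyte that carries it. Some of these mRNAs, that of Mbp above all, are carried into the processes and translated at the sheath. Astrocytes make no myelin, and the level of a member in IP, as a share of its level in INPUT, is called its residue here, with no statement on where it comes from.

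Values are CPM, the fragments on a gene scaled to a common total of fragments counted on all genes of the library. Between 16392876 and 25814364 fragments per library were counted on genes. At this depth 3 reads amount to at most 0.183 CPM, and Opalin, the lowest member, had 3 to 23 reads in the IP libraries. As a check of the label, all 11 astrocyte marker genes were higher in naïve IP than in naïve INPUT (median log2 ratio 3.55), and all 10 neuronal, 10 microglial and 8 endothelial markers were lower. Of 5 choroid plexus genes, 2 had a mean above 1 CPM and were tested, and 0 were called in naïve mice. Ttr among them had a log2 ratio of 2.38 (adjusted p = 0.086, limma) and ranged from 1.59 to 114 CPM over the naïve IP libraries. With median ratio rescaling or quantile normalization Ttr was called higher in IP, in naïve and in stressed mice. Without rescaling, Kl was called lower in IP in stressed mice (log2 ratio −1.04, adjusted p = 0.0040, limma). Kl is named after its values were seen. The 10 most abundant genes took 19.1% ± 0.342 of reads in naïve IP and 3.78% ± 0.0499 in naïve INPUT (SD, n = 4 each). The median gene had a log2 ratio of IP over INPUT of −0.64 in naïve and −0.63 in stressed mice, and the members are set against that shift.

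The sequences upstream of 2 members are shown because they alone, of the 8 examined, held the longest of 4 words of the kind bound by the SOX family, to which the oligodendrocyte factor Sox10 belongs. RefSeq windows on GRCm38.p6 of 250 bases before the annotated start were searched on both strands for AACAAAG, whose reverse complement is CTTTGTT. The word was chosen after the matches of all 4 had been seen, and 5.03% of 32851 windows of the same length hold it. The shorter words CAAAG and ACAAAG, which it contains, were in 6 and 4 of the 8 members and in 48.6% and 16.5% of all windows, and ACAATG in 1 member and 10.7% of windows. These units differ, since the 8 members had 10 windows and a member counted if any of its windows held the word. Mobp had 4 copies and Cnp had 1, and Mobp's was the only window of all with as many as 4. The stretch of Mobp lies at chr9:120149492-120149575 and that of Cnp at chr11:100574746-100574802, both on the plus strand, and capitals mark the word or its reverse complement.
Mobp: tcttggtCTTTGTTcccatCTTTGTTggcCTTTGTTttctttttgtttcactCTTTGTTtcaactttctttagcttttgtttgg
Cnp: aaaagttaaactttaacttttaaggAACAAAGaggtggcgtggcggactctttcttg
A match describes these letters only and names no site of binding. The windows of Mog, Mag, Cldn11, Ermn, Mal and Opalin held no copy of the longest word.

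Among the genes of the compact sheath, Mbp, Mobp, Mal and Cldn11 were all lower in IP than in INPUT. Mbp encodes the basic protein that holds the cytoplasmic faces of the membrane together. Its level was 48.4, 45.2, 55.1 and 60.7 CPM in the naïve IP libraries (replicates 2, 8, 11 and 13) and 654, 682, 811 and 672 CPM in naïve INPUT (replicates 3, 7, 14 and 16). In the stressed mice it was 38.4, 48.8, 44.5 and 67.9 CPM in IP (replicates 4, 5, 6 and 15) and 514, 650, 617 and 682 CPM in INPUT (replicates 1, 9, 10 and 12). Every IP library was thus below every INPUT library, with the highest IP value in stress replicate 15 and the lowest INPUT value in stress replicate 1. The log2 ratio of IP over INPUT for Mbp was −3.75 in naïve mice (SE 0.09, adjusted p = 1.60e-13, limma with Benjamini-Hochberg adjustment) and −3.65 in stressed mice (SE 0.15, adjusted p = 1.11e-10, limma). Mean Mbp in IP was 7.43% of its mean in INPUT in naïve mice and 8.10% in stressed mice.
Mal encodes a small membrane protein of lipid rafts that takes part in sorting proteins to myelin (chromosome 2 of GRCm38, 127633226 to 127656695). Its level was 7.49, 6.94, 7.48 and 8.14 CPM in naïve IP and 164, 165, 154 and 149 CPM in naïve INPUT, in the same order of libraries. After stress it was 7.05, 5.62, 7.26 and 10.2 CPM in IP and 145, 136, 145 and 187 CPM in INPUT. The groups did not overlap, and mean Mal in naïve IP was 4.75% of its mean in INPUT (log2 ratio −4.38, SE 0.07, adjusted p = 8.09e-15, limma). Cldn11 (chromosome 3, 31149920 to 31164324), the claudin of the tight junctions between the myelin layers, was at 2.15, 1.93, 4.35 and 2.56 CPM in naïve IP and at 52.4 to 61.0 CPM in naïve INPUT. Its naïve IP share was 4.86% of INPUT (log2 ratio −4.38, SE 0.19), and replicate 11 was the high library in that group. Mal and Cldn11 were thus level in naïve mice, and in stressed mice their log2 ratios were −4.35 and −4.44. Mobp (chromosome 9, 120149707 to 120181484), a basic protein of compact myelin, lay between 7.05 and 9.68 CPM over the 8 IP libraries and between 63.6 and 95.6 CPM over the 8 INPUT libraries. It kept the largest residue of the depleted members, 10.2% of INPUT in naïve and 10.7% in stressed mice, with log2 ratios of −3.27 (SE 0.11) and −3.20 (SE 0.12).

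**Figure D1:**
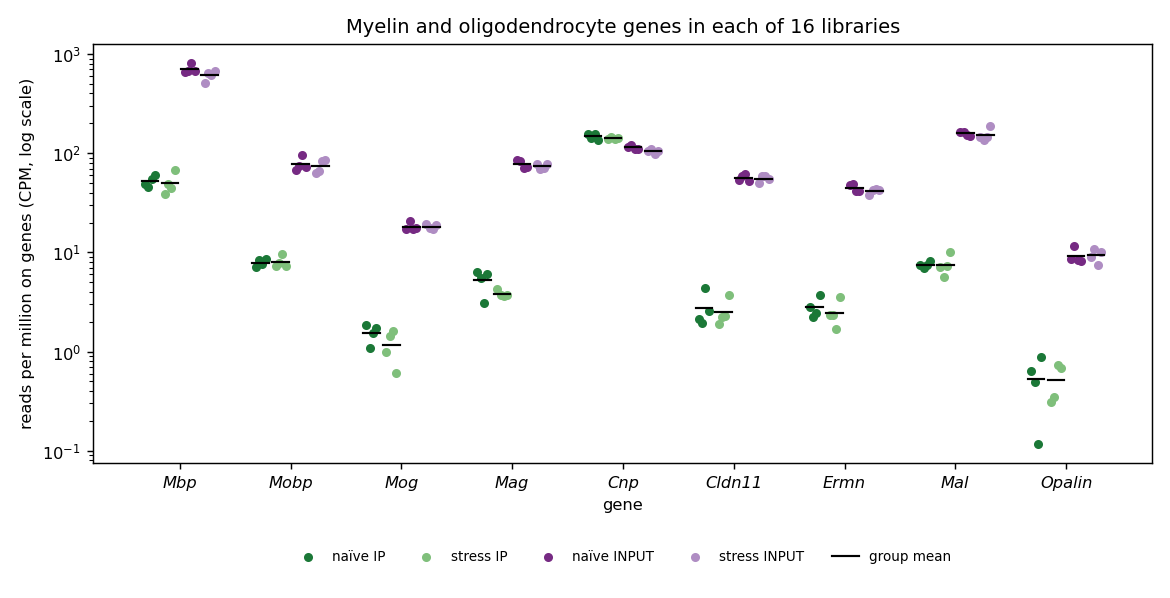
Level of each of the 9 genes in each of the 16 libraries, in CPM on a log axis, with 1 point per library and a bar at the mean of the 4 libraries of a group. The IP points lie below the INPUT points for 8 genes, and above them for Cnp, at 137 to 158 CPM against 98.5 to 122 CPM.

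The genes of the myelin surface and of the mature oligodendrocyte were lower in IP as well. Mag (chromosome 7, 30899176 to 30914873) encodes the glycoprotein that faces the axon. Its level was 6.31, 5.51, 3.05 and 6.04 CPM in the naïve and 4.24, 3.70, 3.61 and 3.70 CPM in the stress IP libraries. Naïve IP replicate 11 was below all stress IP libraries, and the other 3 naïve libraries were above them. In INPUT Mag ranged from 69.6 to 84.9 CPM, so that the log2 ratio of IP over INPUT was −3.92 in naïve mice (SE 0.18, adjusted p = 1.19e-10, limma) and −4.25 in stressed mice (SE 0.09, adjusted p = 5.99e-13, limma).
Mog (chromosome 17, 37010743 to 37023398), an adhesion protein on the outermost layer of the sheath, was at 1.86, 1.07, 1.53 and 1.74 CPM in the naïve and at 0.98, 1.43, 1.60 and 0.60 CPM in the stress IP libraries. Stress replicate 15 was the lowest of all 8 and rested on 15 reads. Mog had 17.2 to 20.8 CPM in INPUT, with log2 ratios of −3.50 (SE 0.16) in naïve and −3.95 (SE 0.24) in stressed mice. Ermn (chromosome 2, 58045113 to 58052864), which encodes a cytoskeletal protein of myelinating oligodendrocytes, ranged from 1.69 to 3.68 CPM in IP and from 37.8 to 48.9 CPM in INPUT, with log2 ratios of −3.99 (SE 0.14) and −4.07 (SE 0.18). Opalin (chromosome 19, 41061710 to 41077113), a glycoprotein of the oligodendrocyte membrane, was at 0.64, 0.49, 0.12 and 0.89 CPM in naïve IP, at 0.31, 0.35, 0.73 and 0.68 CPM in stress IP, and at 7.53 to 11.7 CPM in INPUT. In naïve IP its values spread the most of the 9 (SD of log2 values 0.95), whereas in stress IP those of Mog did (0.57 against 0.53 for Opalin). The 0.12 CPM of naïve replicate 11 was only 3 reads. The log2 ratio of Opalin was −4.05 in naïve mice, with the largest standard error of the members (0.37, adjusted p = 1.79e-07, limma), and −4.00 in stressed mice (SE 0.26, adjusted p = 1.27e-08, limma).

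Cnp (chromosome 11, 100574904 to 100591729) went the other way. It encodes the phosphodiesterase CNPase, a protein of the uncompacted cytoplasm of myelin and a long-used marker of the oligodendrocyte. Its level was 158, 142, 155 and 137 CPM in the naïve and 138, 146, 140 and 143 CPM in the stress IP libraries, 116, 122, 110 and 111 CPM in naïve INPUT, and 104, 110, 98.5 and 105 CPM in stress INPUT. The lowest IP library (137 CPM, naïve replicate 13) was above the highest INPUT library (122 CPM, naïve replicate 7). Cnp was 1.29-fold higher in naïve IP than in naïve INPUT (log2 ratio 0.37, 95% interval 0.23 to 0.50, adjusted p = 7.15e-05, limma) and 1.36-fold higher in stressed mice (0.44, 0.32 to 0.56, adjusted p = 8.89e-06, limma). Relative to the median gene, the log2 ratio of Cnp was 1.00 in naïve and 1.07 in stressed mice, whereas those of the other 8 members lay between −3.74 and −2.64 in naïve mice. The size of the Cnp ratio thus depended on scaling (1.01 in naïve and 1.07 in stressed mice when libraries were rescaled by the median ratio), but its direction was the same under every alternative tried. The largest overlap of a Cnp exon with one of Dnajc7, on the opposite strand, was 154 bases, or 4.23% of the exon bases of Cnp. A total over all exons was not taken. Dnajc7 itself was lower in IP (log2 ratio −0.57 in naïve mice). Whether the counting used strand, and whether it kept reads that fall on overlapping genes, is not given in the sources used here. Without strand, reads in that stretch cannot be told apart, and they may not have been counted at all. The overlap is that of GENCODE M21, whereas counting was on RefSeq genes. The same holds for at least 237 exon bases that Ermn shares with Galnt5 on the opposite strand. Galnt5 was at 0.282 CPM or less in every library. An exon of Mobp overlaps one of Gm38642 on the same strand by 79 bases, and Gm38642 was not among the genes listed.

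Taking the members as a list, 8 of 9 were lower in IP and 1 was higher, in naïve and in stressed mice alike. This is read against the whole table, where 64.0% of 13339 genes were lower and 23.7% higher in naïve mice, and 62.5% and 23.6% of 13333 genes in stressed mice. With libraries rescaled by the median ratio the split of all genes was 42.3% lower and 41.9% higher in naïve and 41.4% and 40.8% in stressed mice, and that of the members was still 8 and 1. The sizes moved too, and the naïve log2 ratio nearest to 0 under any alternative ranged from −3.74 for Mal to −2.64 for Mobp and Mog over the 8 depleted members. The IP and INPUT groups overlapped for none of the 9, and 83.7% of all genes tested in naïve and 81.4% in stressed mice had no overlap either. The exact permutation test gave p = 0.029 for each member in each comparison, the smallest value that 4 against 4 libraries allow over 70 labelings (two-sided). The members had a median log2 ratio of −3.92 against −0.64 over all genes in naïve mice. A size of this order was not particular to them. The list medians were −4.121 for neuronal, −3.351 for other mature oligodendrocyte, −3.155 for microglial and −2.842 for endothelial genes. IP and INPUT were drawn from the same lysates, so these ratios do not compare numbers of cells. Between naïve and stressed mice, fewer cells of a type and less RNA per cell cannot be told apart in bulk RNA.

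**Figure D2:**
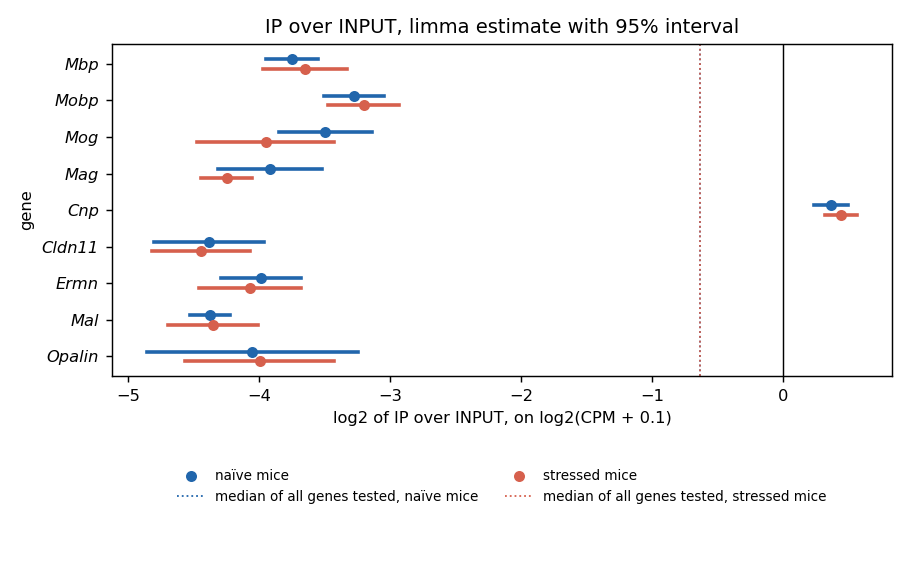
Log2 ratio of IP over INPUT for the 9 genes in naïve and in stressed mice, with points at the limma estimate and bars for its 95% interval (4 against 4 libraries each). Dotted lines mark the median of all genes tested, at −0.64 and −0.63, and Cnp is the gene to the right of 0.

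The residue of the 8 other members was also summed and set beside that of other cell types. Their summed level was 71.8 to 92.2 CPM in naïve IP against 1086 to 1259 CPM in naïve INPUT, or 7.03%, and 7.28% in stressed mice. Cnp was left out of this sum after its values were seen, and with it the sum in IP was 18.1% of INPUT in naïve and 19.0% in stressed mice. The corresponding shares were 5.89% and 5.04% for the summed neuronal list, 13.2% and 14.1% for the microglial list and 16.3% and 15.2% for the endothelial list. The other lists of the lineage were higher, at 77.8% and 80.1% (mature genes), 139% and 116% (transcription factors) and 112% and 118% (precursor genes). Single genes weighed heavily in the mean sums in naïve IP, with Mbp at 52.4 of 80.6 CPM, Car2 at 467 of 834 CPM and Itpr2 at 386 of 463 CPM. Cnp made up 64.7% ± 3.39 of the member sum in naïve IP and 9.12% ± 0.759 in naïve INPUT, and Mbp 22.9% ± 2.65 and 55.7% ± 2.58 (SD, n = 4 each).
Ratios between members within a library are free of the scale of that library, and were used to compare the mix of members in IP with that in INPUT. Of 36 pairs, 11 had ratios that did not overlap between the 8 IP and the 8 INPUT libraries, against 72.1% of all pairs of 13282 genes (mean above 1 CPM and no library at 0). All 8 pairs with Cnp were among them. Of the 28 pairs without Cnp, 3 did not overlap, namely Mbp to Mal, Mobp to Mal and Mobp to Cldn11. The first gene of each pair was relatively higher in IP, with medians of the log2 ratio apart by 0.65, 1.14 and 1.36. The other 25 pairs overlapped, but this does not show a like mix, since their medians were apart by as much as 0.91 for Mobp to Mag, 0.88 for Mobp to Ermn and 0.87 for Mog to Cldn11, with wide ranges in IP.

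Levels were also compared between genes per kilobase of exon (all exons of the gene in GENCODE M21, so for Mbp those of all transcripts of the locus). In naïve INPUT the order was Mbp (83.2 ± 8.48 CPM per kilobase), Mal (56.9 ± 2.88), Cnp (31.5 ± 1.59), Cldn11 (30.2 ± 2.30), Mag (19.2 ± 1.84), Ermn (12.4 ± 1.11), Mobp (11.4 ± 1.78), Mog (10.7 ± 1.00) and Opalin (3.12 ± 0.574; SD, n = 4 each). The neighbours Cnp and Cldn11 overlapped, as did Ermn with Mobp and Mobp with Mog. In naïve IP Cnp came first at 40.7 ± 2.71 CPM per kilobase, followed by Mbp at 6.18 ± 0.815 and Mal at 2.70 ± 0.176, none of which overlapped its neighbour. Cldn11, Mag, Mobp, Mog and Ermn came next with means from 1.47 to 0.766 CPM per kilobase, each overlapping the next among them. Ermn did not overlap Opalin, which was last at 0.181 ± 0.110. After stress the order in IP was the same for the first 4 genes and for Opalin, and in INPUT Mbp (72.7 ± 8.58) and Mal (55.2 ± 8.19) overlapped.

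Other genes of the lineage were taken as lists, and most of their genes were lower in IP too, as were most of all genes tested. Of 22 other genes of mature oligodendrocytes, 19 were lower in naïve IP than in naïve INPUT and 3 were higher, with a median log2 ratio of −3.35. Of all genes tested, 64.0% were lower and 23.7% higher in naïve mice, and 62.5% and 23.6% in stressed mice. In stressed mice 18 of the 22 were lower, 3 were higher and 1, Aspa, did not pass. Genes of these lists near the median of all genes depended on scaling. With libraries rescaled by the median ratio, 16 of the 22 were lower, 4 higher and 2 did not pass in naïve mice. The shares over all genes were then 42.3% lower and 41.9% higher. The lowest ratios over the lists in naïve mice were those of the plasmolipin gene Pllp (−4.82), Enpp6 (−4.09), a gene of newly formed oligodendrocytes, and Ugt8a (−4.05), which makes galactocerebroside. Enpp6 rested on 0 to 12 reads in the naïve IP libraries, and its ratio ran from −5.32 with a pseudocount of 0.01 CPM to −2.10 with 1 CPM, so that its place depended on that choice.
A few genes of these lists were on the side of Cnp. The 3 mature genes higher in naïve IP were Car2, a carbonic anhydrase (467 ± 17.6 CPM in IP against 112 ± 8.60 CPM in INPUT, log2 ratio 2.06; SD, n = 4 each), the orphan receptor gene Gpr37 (0.84) and Gsn (0.58), whose product gelsolin severs actin filaments. Of 9 transcription factors of the lineage, 5 were lower and 4 higher, where 64.0% of all genes were lower and 23.7% higher. The 4 were the Wnt effector Tcf7l2 (3.46), Nkx2-2 (1.56), Olig1 (1.28) and Olig2 (1.22). The naïve IP and INPUT values of Olig2 overlapped, whereas Sox10, a factor needed for myelin gene expression, had a log2 ratio of −3.46. Of 12 precursor genes, 10 were lower, Itpr2, a calcium release channel gene, was higher (386 ± 34.3 CPM against 33.2 ± 2.90 CPM, log2 ratio 3.54) and Vcan, a matrix proteoglycan gene, did not pass (−0.17, adjusted p = 0.069, limma), though it was called higher after rescaling by the median ratio. The ratios of Itpr2 and Tcf7l2 lay within the range of the 11 astrocyte markers (2.87 to 4.50), so a place on these lists does not make a gene particular to the lineage. Aspa, Gpr37, Gsn, Nkx2-2, Olig1, Olig2 and Vcan are named after their values were seen.

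**Figure D3:**
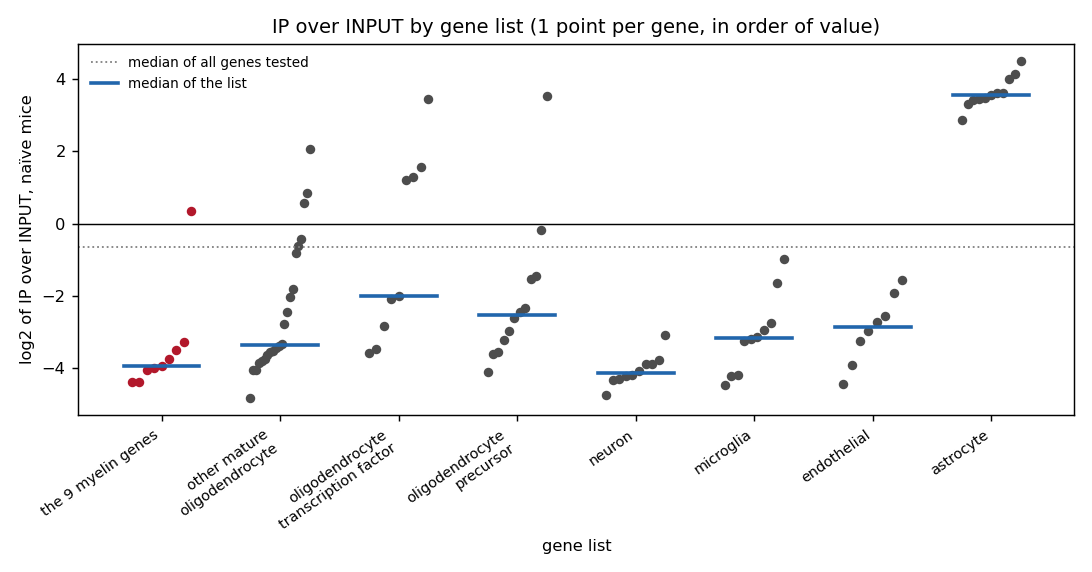
Log2 ratio of IP over INPUT in naïve mice for each gene of each list, ordered by value within its list, with a blue bar at the median of the list and a dotted line at the median of all genes tested (−0.64). The lists of the oligodendrocyte lineage hold genes on both sides of 0, whereas the neuronal, microglial and endothelial lists lie below 0 and the astrocyte list runs from 2.87 to 4.50.

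Swim stress was not followed by a detectable change of any member in the astrocyte IP. Of 8 members tested 0 passed the adjusted threshold, against 0.440% of 12501 genes (55), and 0 had an unadjusted p under 0.05, against 8.27% of all genes (limma). limma-voom on the recovered reads also called 0 members in each test of stress. Opalin was below the filter of a mean of 1 CPM in IP and was not tested. The stress and naïve values overlapped for all 9, where 5.00% of genes tested did not overlap. Mbp averaged 52.4 ± 6.90 CPM without and 49.9 ± 12.7 CPM with stress, and mean Mobp 7.91 ± 0.680 and 8.03 ± 1.13 CPM (SD, n = 4 each). The difference was best bounded for Cnp, at 148 ± 9.86 and 142 ± 3.58 CPM, where the 95% interval of stress over naïve ran from 0.877-fold to 1.05-fold. For Mbp, Mobp and Mal the intervals all lay between 0.745-fold and 1.25-fold. The other 4 tested had wider intervals, which ran from −1.12 to 0.22 around −0.45 for Mog, from −0.68 to 0.51 for Cldn11, from −0.70 to 0.32 for Ermn and from −0.85 to 0.06 around −0.40 for Mag (log2, adjusted p = 0.68 for Mag, limma), so that a fall of Mog by more than one log2 unit lay inside its interval.

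In whole cortex RNA 0 of 9 members passed after stress, against 0.0442% of 13577 genes tested. An unadjusted p under 0.05 was reached by 2 members, where 5.03% of all genes reached it. These were Mbp, with a log2 difference of −0.20 (95% interval −0.38 to −0.01, adjusted p = 0.97, limma), and Cnp, with −0.13 (−0.26 to −0.01, adjusted p = 0.96, limma). Neither holds up after adjustment, and the stress and naïve libraries of both overlapped, as they did for all 9 members (2.87% of genes did not overlap). The intervals of the 8 members tested in both fractions were narrower than in IP. Those of Mog, Mag, Cldn11 and Ermn lay between −0.28 and 0.19 on the log2 scale, whereas those of Mobp, Mal and Opalin reached −0.30 and 0.34. The stress effect in IP was also set against that in INPUT by an interaction term, which 0 of 9 members passed (adjusted p = 0.9999 for each, and 0 with an unadjusted p under 0.05, limma) against 0.0225% of 13341 genes. The estimates ran from −0.45 for Mog (−1.10 to 0.19) to 0.10 for Mbp (−0.30 to 0.51).

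**Figure D4:**
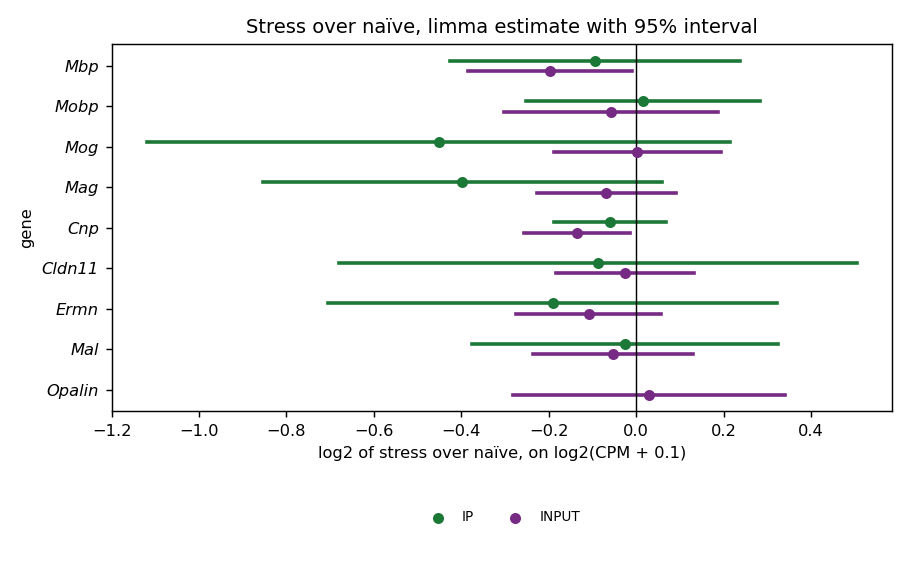
Log2 difference of stress over naïve in IP and in INPUT for each gene, with points at the limma estimate and bars for its 95% interval (4 against 4 libraries). All IP intervals include 0, the INPUT intervals of Mbp and Cnp end just below it, at −0.01, and Opalin has no IP bar because it was under 1 CPM.

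None of the 43 other oligodendrocyte genes passed the adjusted threshold for stress either. In IP 34 of them were tested and in INPUT all 43. Ugt8a differed by −0.14 in IP and −0.10 in INPUT (log2). An unadjusted p under 0.05 was reached by 3 of the 34 in IP and by 7 of the 43 in INPUT, against 8.27% and 5.03% of all genes, and the groups did not overlap for 1 and 3 of them, against 5.00% and 2.87%. limma-voom also called 0 of them in both fractions. The 3 in IP were Olig2, Vcan and Tnr, a matrix glycoprotein gene. Olig2, a factor that specifies the lineage, averaged 61.7 ± 23.6 CPM over the naïve IP and 29.5 ± 4.58 CPM over the stress IP libraries (SD, n = 4 each), where the lowest naïve library (29.0 CPM) was below the highest stress library (36.3 CPM), with a log2 difference of −0.97 (95% interval −1.54 to −0.40, adjusted p = 0.22, limma). All 7 transcription factors tested in IP had estimates below 0, and of these only Olig2 reached an unadjusted p under 0.05. Estimates below 0 were not particular to these factors. In IP they were found for 9 of 10 neuronal, 4 of 4 endothelial and 6 of 8 microglial genes tested, and for 4 of 11 astrocyte genes. Vcan differed by 0.40 (0.12 to 0.68, adjusted p = 0.36, limma) and Tnr by 0.20, with no overlap between its groups. In INPUT the 3 without overlap were Adamts4, a protease gene (−0.49, adjusted p = 0.36, limma), Fa2h (−0.45, adjusted p = 0.49, limma) and Enpp2 (−0.11), the gene of autotaxin, and the other 4 were Tmem88b, Gsn, Sox10 and Bcas1, of which Gsn alone was above 0. These genes are named after their values were seen.

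Libraries of one group differed more in IP than in INPUT for most members, and the members did not move as a block. The SD of log2 values was larger in IP than in INPUT for 8 of 9 members in naïve and for 7 of 9 in stressed mice, with fewer reads on all members but Cnp in IP. It ran from 0.09 for Mal to 0.95 for Opalin in naïve IP and from 0.07 for Cnp and Mal to 0.24 for Opalin in naïve INPUT. The same count was not made over all genes, so it is not read as particular to the members. Over all genes tested, the median standard error of stress against naïve was 0.104 in IP and 0.0918 in INPUT. In naïve IP replicate 11 the deviations from the group mean on the log2 scale were −0.70 for Mag and −1.35 for Opalin, but 0.71 for Cldn11. In stress IP replicate 15 they were 0.48 for Mbp, 0.57 for Cldn11, 0.55 for Ermn and 0.47 for Mal, but −0.75 for Mog. Both libraries thus held members that were high and members that were low. In replicate 15 the mean deviations of the neuronal (0.28), microglial (0.36) and precursor lists (0.46) were also above 0, and their part in the values of the members was not tested. In INPUT, replicate 14 had the highest Mbp and Mobp of the naïve group (0.21 and 0.31) together with the lowest Mag (−0.15), and the mean deviation of its endothelial list was −0.35. Naïve INPUT replicate 16 was the one library in which all 9 members were below the group mean, by small amounts (−0.15 to −0.05).

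**Figure D5:**
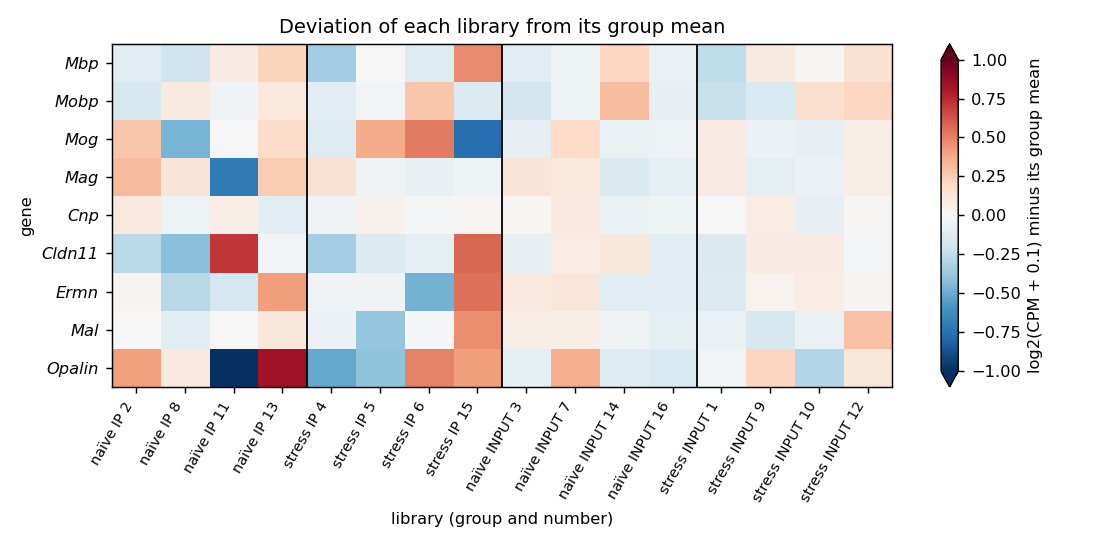
Deviation of each library from the mean of its group, on log2(CPM + 0.1), for the 9 genes (rows) in the 16 libraries (columns, with black lines between groups). Red is above and blue below the group mean, the colour ends at 1 in each direction, and naïve IP 11 and stress IP 15 hold both strong red and strong blue cells.

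After group means were taken out, pairs of members had a median Pearson r of 0.08 over the 16 libraries, 0.26 over the 8 INPUT and 0.01 over the 8 IP libraries, where 4 of the 36 pairs were below −0.5 (2 in INPUT), as a description over libraries that share depth and scale. The genes whose deviations were most like the mean of the 9 members over 16 libraries, among 13332 genes, were Fa2h (0.89), which makes hydroxylated lipids of myelin, and then Ipmk (0.89), Zdhhc3 (0.87), Pou6f1 (0.86), Nptx2 (0.86), Wbscr17 (0.85), Rerg (0.85), Csk (0.84), Vgf (0.84) and Znrf2 (0.83). Within the 8 INPUT libraries they were Thap1 (0.97), Pcdhac2 (0.97), Zkscan17 (0.95), Pcdhga10 (0.94) and 1110007C09Rik (0.94). Within the 8 IP libraries they were Znrf2 (0.99), Rundc1 (0.97), Sgip1 (0.97), Otub2 (0.97) and Csk (0.97). The mean weighed all 9 members alike, and Opalin rested on 3 to 23 reads in the IP libraries. In naïve IP replicate 11 Opalin deviated by −1.35 and the mean of the members by −0.15. Counting error of Opalin thus entered these rankings, by an amount that was not tested. With so few libraries and so many genes, high values of r arise without any tie between genes.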

How the data were processed

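Data were available for 16 RNA-seq libraries, 4 per group. Per the submitters' processing notes and methods, the authors used STAR for alignment to mm10 and HTSeq for counting uniquely mapped fragments on RefSeq genes. The notes also name edgeR and limma, and versions are not given in the sources used here. The authors deposited 1 table per library with log2 CPM of 24060 genes, scaled to that library's own total, with a small constant (floor −6.40 in all 16) and neither a length correction nor a scaling across libraries. A checked recovery of reads from these values gave whole numbers for 100% of them, within 0.05 reads. No libraries were identical. Counts on genes were 16392876 to 25814364 per library. Floors of 3 reads cover counting error only.

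CPM was recovered by removing the constant. The main test was limma 3.58.1 (R 4.3.3, lmFit and eBayes with trend) on log2(CPM + 0.1). It took in genes whose mean exceeded 1 CPM in the libraries fitted, with Benjamini-Hochberg adjustment over all genes tested and a threshold of 0.05. Fold changes on this scale understate those of low genes. IP and INPUT were compared within naïve and within stressed mice, stress and naïve within IP and within INPUT (8 libraries each), and the interaction on all 16. An exact permutation test (two-sided) over libraries was run for each member. The fit was also run on simulated reads, drawn in both groups from the naïve IP means, with some genes changed by known folds. That setting holds no shift between IP and INPUT over all genes, so it does not test how such a shift affects the ratios. A single spread between libraries was set for all genes rather than taken from the data. Libraries were treated as independent, so p-values measure the spread between them, although, per the methods, IP and INPUT were drawn from the lysate of the same mouse, and which 2 libraries belong together is not in the labels.

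Named were all 9 members, the 3 highest and 3 lowest IP ratios over the oligodendrocyte lists, and the genes most like the members (10 over all libraries, 5 within each fraction). Some listed genes are not reported here. Members and lists were chosen with earlier results of these data known. Genes outside the rule are said to be so where named; Sox10 and Dnajc7 were chosen after their values were seen. Alternatives were other pseudocounts, filters, scalings, limma-voom on the recovered reads, no variance trend, array weights, 1 model for all 16 libraries and each library left out in turn. Coordinates and exon lengths came from GENCODE M21 (GRCm38), promoter windows from RefSeq (GRCm38.p6, 8 of 9 members used). Python 3.11.15, pandas 2.3.3 and matplotlib 3.10.9 were used.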

Additional observations from a re-analysis of the deposited data

Results flagged for a closer look

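Of 36 sets of 4 libraries (9 genes in 4 groups), 3 held a library whose gap to the nearest of the others as a share of the whole range was above Dixon's 95% value for 4 samples. With the 6 other list genes named there were 3 such sets of 60, where chance gives about 3 (1 in 20). Mog in naïve INPUT replicate 7 was at 20.8 CPM, with the other 3 libraries at 17.2 to 17.6 CPM, and Opalin in the same library was at 11.7 CPM, with the others at 8.19 to 8.53 CPM. Mag in stress IP replicate 4 was at 4.24 CPM, with the others at 3.61 to 3.70 CPM.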

How the results depend on the processing

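The counts of members called did not move under any alternative, with 1 member higher in IP, 7 or 8 lower (7 with a mean above 5 CPM, where Opalin is not tested) and 0 changed by stress. No direction of a called member reversed. The 11 pairs of members whose ratios did not overlap between IP and INPUT became 17 with a pseudocount of 1 CPM and stayed at 11 to 13 with a library left out. The log2 ratio of Cnp rose from 0.37 to 1.01 (naïve) and from 0.44 to 1.07 (stressed) with median ratio rescaling. Those of the 8 depleted members moved as well, and the naïve ratios nearest to 0 under any alternative were −3.11 for Mbp, −2.64 for Mobp, −3.26 for Mag, −3.64 for Cldn11, −3.23 for Ermn, −3.74 for Mal, −2.64 for Mog (quantile normalization) and −2.74 for Opalin (a pseudocount of 1 CPM). The counts over all genes moved far more. In IP the 55 stress calls became 19 without a variance trend, 143 with array weights, 124 with all 16 libraries in 1 model, and 17 to 122 with a library left out (122 without naïve replicate 11, 101 without stress replicate 15). In INPUT the 6 calls became 0, 50, 2 and 1 to 32 (32 without naïve replicate 14, 18 without stress replicate 9). The 3 interaction calls became 19 with array weights and 2 to 28 with a library left out. The cause was not tested. No paired analysis was possible because the library numbers 1 to 16 are not shared between groups, and no label pairs an IP with the INPUT of its mouse. Depth limits Opalin and Mog most, with 3 to 23 and 15 to 45 reads in IP.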
